A study of Mus musculus with 8 samples.

Results

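The 9 genes of opioid, dopamine and cannabinoid signaling described here were measured by RNA-sequencing in the hippocampus of mice with and without repeated ketamine anesthesia early in life. They were chosen by name, as the rows whose Ensembl identifier maps to Oprm1, Oprk1, Oprd1, Penk, Pdyn, Drd1, Drd2, Drd5 or Cnr1, and all 9 were found among the 20802 genes of the deposited table. All 8 mice were C57BL/6 males, and the tissue was labelled hippocampus, taken at postnatal day (PND) 28. The 4 mice of the Anesthesia group had been given ketamine at 35 mg/kg by intraperitoneal injection once a day on consecutive days from PND 16, and RNA was taken about a week after the last injection. The 4 mice of the Control group were handled alike with normal saline according to the protocol, although their sample titles call them untreated. Nothing in the labels states that animals were pooled, and each column of the table was matched to 1 mouse. The p-values below set group differences against the spread between mice and treat the 8 mice as independent. The labels do not say which mice shared a litter or cage, so that independence could not be checked.

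The opioid system pairs peptide ligands, cut from large precursors, with receptors that couple to inhibitory Gi/o proteins, lower cyclic AMP and open potassium channels. Penk encodes proenkephalin, the precursor of the enkephalins, and Pdyn encodes prodynorphin, the precursor of the dynorphins, which is made in dentate granule cells and their mossy fibers. Oprm1, Oprd1 and Oprk1 encode the mu, delta and kappa receptors. Drd1 and Drd5 encode the D1-class dopamine receptors, which stimulate adenylyl cyclase, and Drd2 encodes a D2-class receptor, which inhibits it. Cnr1 encodes the CB1 cannabinoid receptor, a Gi/o-coupled receptor on axon terminals that is abundant on cholecystokinin interneurons of the hippocampus. Some of these genes are better known from the striatum, where Drd1 and Pdyn mark direct-pathway and Drd2 and Penk indirect-pathway spiny neurons.

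The link between the opioid precursors can be read in their coding sequences, where the opioid peptides start with codons for the same 4 amino acids, known as the opioid core, followed by a codon for methionine or leucine. A copy of the core was counted only where a pair of basic codons came directly before it. In the GENCODE M21 transcripts of GRCm38, the longest coding sequence of Penk held 7 such copies, 6 followed by methionine and 1 by leucine. Pdyn held 3 copies, all followed by leucine. Of 21562 genes with a coding sequence, 3 held at least 1 copy so counted (0.0139%), and these were Penk, Pdyn and Pomc. The core without such a pair before it was not counted. The following stretches show a methionine copy and the leucine copy of Penk, its last copy, which is not followed by a pair of basic codons, and the 3 copies of Pdyn. Capitals mark the opioid core. The bases before it are the basic codons that the search required. Those after the fifth codon show the flanking codons, which are most often the basic pairs at which convertases cut.
Penk copy 1: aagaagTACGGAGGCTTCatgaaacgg
Penk copy 6: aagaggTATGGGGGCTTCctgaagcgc
Penk copy 7: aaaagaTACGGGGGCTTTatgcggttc
Pdyn copy 1: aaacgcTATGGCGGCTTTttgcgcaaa
Pdyn copy 2: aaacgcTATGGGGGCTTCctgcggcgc
Pdyn copy 3: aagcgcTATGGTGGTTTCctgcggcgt
All were read on the minus strand of GRCm38. The Penk copies lie in exon 2 of 2, at chr4:4134328-4134354, chr4:4133935-4133961 and chr4:4133842-4133868. The Pdyn copies lie in exon 4 of 4, at chr2:129688232-129688258, chr2:129688124-129688150 and chr2:129688067-129688093. The gene-level values below sum all transcripts of a gene and do not resolve which peptide was made.

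Values are counts normalized by the authors with DESeq2, here called normalized counts. They summed to between 18702634 and 19231119 per mouse. If the spacing of the lowest values stands for 1 read, the reads on listed genes came to approximately 15400000 to 22200000 per mouse. Markers of the labelled tissue were present, with all 10 dentate granule neuron, all 6 CA1 and all 5 CA3 pyramidal neuron markers passing the filter of a mean of at least 10 normalized counts. Libraries also stood apart in tissue that borders the hippocampus. The summed level of 13 choroid plexus markers was 86686, 4835, 4551 and 9815 in Anesthesia mice 1 to 4, and 4309, 45924, 103473 and 101257 in Control mice 1 to 4. Anesthesia mouse 3 had the highest sum of 8 neocortical neuron markers, 4341 against 1708 to 2612 in the other 7 mice, and the lowest sum of 10 dentate granule neuron markers, 7157 against 8337 to 14197. Anesthesia mouse 2 was its opposite, with the lowest neocortical sum, 1708, and the highest dentate sum, 14197. Control mouse 3 had nearly the same neocortical sum, 1745, with a dentate sum of 10733. Values of the 9 genes are therefore given for each mouse, and fold changes that rest on 1 of these libraries are given with and without it.

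For the group comparison, limma was fitted with a mean-variance trend to log2(normalized count + 1) of the 18865 genes whose mean was at least 10, with Benjamini-Hochberg adjustment over all of them. All 9 genes passed that filter on their mean over the 8 mice. None of the 9 passed an adjusted p of 0.05 in limma, as was the case for all genes tested, of which 0% passed. The study itself reported differentially expressed genes between these groups at an adjusted p under 0.05, with DESeq2 on counts. A count model was not run here, so the absence of passing genes holds for limma on normalized counts. None of the 9 had an unadjusted limma p under 0.05, a threshold that 8.02% of all genes tested passed. In none of the 9 were the groups free of overlap, against 5.04% of all genes tested. Fold changes (Anesthesia over Control) were above 0 for 5 of the 9, against 49.2% of all genes tested. Their median log2 fold change was 0.05, beside -0.0036 over all genes tested. Fold changes on this scale understate differences of genes with low values. In bulk tissue, fewer cells of a type and less RNA per cell cannot be told apart.

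**Figure D1:**
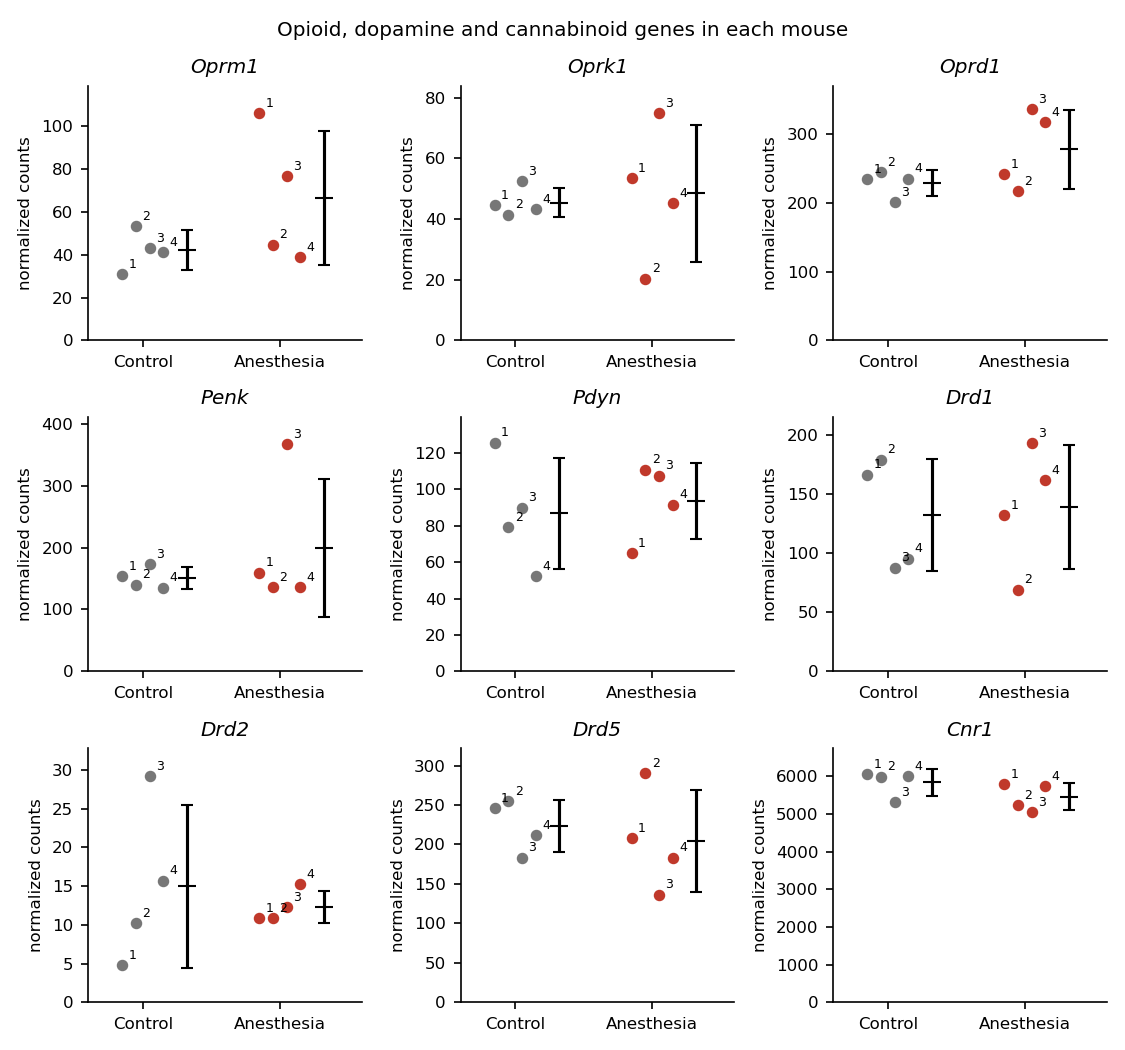
Normalized counts of the 9 genes in each mouse, with the replicate number beside each point (grey, Control; red, Anesthesia; 4 mice per group), and the mean ± SD of each group as a bar beside the points. Each vertical axis starts at 0 and has its own range. The groups overlap in all 9 panels, and the single high point of Penk is Anesthesia mouse 3, at 366.4 normalized counts.

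Of the opioid precursors, Penk (ENSMUSG00000045573, chr4:4133531-4138819, minus strand) was listed at 159.4, 136.3, 366.4 and 136.1 normalized counts in Anesthesia mice 1 to 4. In Control mice 1 to 4 it was listed at 154.4, 140.3, 173.8 and 135.1. Anesthesia mouse 3 was higher than the other 7 mice, which lay between 135.1 and 173.8. The group means were 199.6 ± 112 (SD, n = 4) in Anesthesia and 150.9 ± 17.3 (SD, n = 4) in Control, with a log2 fold change of 0.27 ± 0.28 (SE) and an adjusted limma p of 0.795. Without Anesthesia mouse 3 the log2 fold change was -0.065. With the summed neocortical markers as a covariate in limma it was -0.011. Anesthesia mouse 3 was also the mouse with the highest neocortical marker sum, 4341 against 1708 to 2612 in the other mice. The marker list was chosen after its values were seen. Neither fit can therefore separate neocortical tissue from 1 high mouse, and the part of that tissue in its Penk value was not tested.

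Pdyn (ENSMUSG00000027400, chr2:129686565-129699844, minus strand) was listed at 65.0, 110.9, 107.5 and 91.7 normalized counts in Anesthesia mice 1 to 4. In Control mice 1 to 4 it was listed at 125.7, 79.2, 90.0 and 52.2, so the whole range of the Anesthesia group lay within that of the Control group. Pdyn had a log2 fold change of 0.15 ± 0.26 (SE) and an adjusted limma p of 0.884. The 4 mice with the highest Pdyn values (Control mouse 1 and Anesthesia mice 2, 3 and 4) were the 4 with the lowest choroid plexus marker sums. With the choroid plexus sum as a covariate the log2 fold change of Pdyn was -0.16, and without Control mouse 4 it was -0.070. Whether the 2 precursors shifted against each other was asked with their ratio within each mouse, taken after adding 1 to each value. The log2 ratio of Penk to Pdyn was 0.98 ± 0.67 (SD, n = 4) in Anesthesia and 0.85 ± 0.44 (SD, n = 4) in Control (two-sided exact permutation test, p = 0.743, adjusted over 2 ratios 0.943). The smallest p that 4 against 4 mice allow is 0.0286.

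Among the opioid receptors, Oprm1 (ENSMUSG00000000766, chr10:6758506-7038198, plus strand), the receptor of morphine, had the largest fold change of the 9 genes. It was listed at 106.3, 44.8, 76.7 and 38.9 normalized counts in Anesthesia mice 1 to 4, and at 31.0, 53.6, 43.2 and 41.2 in Control mice 1 to 4. Anesthesia mice 1 and 3 lay above every Control mouse, while Anesthesia mice 2 and 4 lay within the Control range. The means were 66.7 ± 31.2 (SD, n = 4) and 42.3 ± 9.26 (SD, n = 4), a 1.47-fold difference on the scale of the fit. The log2 fold change was 0.56 ± 0.31 (SE; 95% interval -0.14 to 1.25), with an unadjusted p of 0.104 and an adjusted p of 0.669 in limma. Leaving out Anesthesia mouse 1 gave a log2 fold change of 0.30 (limma, unadjusted p = 0.317). With the choroid plexus covariate it was 0.82 (limma, unadjusted p = 0.0217, adjusted p = 0.941), and without Anesthesia mouse 4 it was 0.77 (limma, unadjusted p = 0.0299, adjusted p = 0.755).

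Oprd1 (ENSMUSG00000050511, chr4:132110726-132144486, minus strand), the delta receptor, on which enkephalins act, had the highest level per kb of the 3 opioid receptors. It was listed at 241.6, 216.6, 335.2 and 316.6 normalized counts in Anesthesia mice 1 to 4, and at 234.5, 243.8, 200.5 and 234.9 in Control mice 1 to 4. Anesthesia mice 3 and 4 lay above the Control mice and the others within their range. The means were 277.5 ± 57.3 (SD, n = 4) and 228.4 ± 19.1 (SD, n = 4), with a log2 fold change of 0.26 ± 0.15 (SE; 95% interval -0.06 to 0.58) and an adjusted limma p of 0.669. Anesthesia mice 3 and 4, where Oprd1 was highest, were also those with the highest neocortical marker sums, 4341 and 2612. Cux2, an upper-layer neocortical gene, was among the genes whose pattern over mice was most like that of Oprd1 (Pearson r = 0.967 over 8 libraries). Cux2 is itself part of that marker sum, which also gave the covariate, so these values are not independent of each other. The marker list was chosen after its values were seen. With the neocortical covariate the log2 fold change of Oprd1 was 0.10 (limma, unadjusted p = 0.373). Without Anesthesia mouse 3 it was 0.16, and without Anesthesia mouse 2 it was 0.37 (limma, unadjusted p = 0.0204, adjusted p = 0.522).

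Oprk1 (ENSMUSG00000025905, chr1:5588466-5606131, plus strand), the kappa receptor, on which dynorphins act, was listed at 53.4, 20.3, 74.9 and 45.2 normalized counts in Anesthesia mice 1 to 4. In Control mice 1 to 4 it was listed at 44.7, 41.4, 52.4 and 43.2. The Control mice lay close together, with a coefficient of variation of 10.7%, while the Anesthesia mice spread on both sides of them, with a coefficient of variation of 46.5%. For Oprk1 the log2 fold change was -0.04 ± 0.33 (SE), with an adjusted limma p of 0.977. The lowest and the highest value belonged to Anesthesia mice 2 and 3, the mice with the lowest and the highest neocortical marker sums. Control mouse 3, whose neocortical sum of 1745 was close to the 1708 of Anesthesia mouse 2, was at 52.4 for Oprk1. Without Anesthesia mouse 2 the log2 fold change was 0.32, without Anesthesia mouse 3 it was -0.29, and with the neocortical covariate it was -0.38 (limma, unadjusted p = 0.198).

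Drd1 (ENSMUSG00000021478, chr13:54051183-54055705, minus strand), the D1 receptor, was listed at 132.3, 69.2, 192.9 and 161.8 normalized counts in Anesthesia mice 1 to 4. In Control mice 1 to 4 it was listed at 166.3, 179.0, 87.8 and 95.4. The Control mice fell into a higher and a lower pair, and the Anesthesia mice spanned both, with coefficients of variation of 35.7% and 37.9%. Drd1 had a log2 fold change of 0.05 ± 0.33 (SE) and an adjusted limma p of 0.974. Its direction depended on single mice, with 4 of 8 fits that left out 1 mouse giving a value below 0, and with the neocortical covariate it was -0.27.

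Drd5 (ENSMUSG00000039358, chr5:38319367-38322518, plus strand), the D5 receptor, which in the hippocampus is known from granule and pyramidal neurons, was listed at 208.4, 290.6, 136.4 and 183.3 normalized counts in Anesthesia mice 1 to 4. In Control mice 1 to 4 it was listed at 245.6, 254.5, 183.3 and 211.7. The means were 205 ± 64.6 (SD, n = 4) and 224 ± 32.7 (SD, n = 4), with a log2 fold change of -0.17 ± 0.21 (SE) and an adjusted limma p of 0.827. Drd5 ran against Drd1 and Oprk1 in the libraries that stood apart, since it was highest in Anesthesia mouse 2, where the dentate marker sum was highest, and lowest in Anesthesia mouse 3, where that sum was lowest. Without Anesthesia mouse 3 its log2 fold change was 0.0074, and with the neocortical covariate it was 0.038.

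Drd2 (ENSMUSG00000032259, chr9:49340627-49408177, plus strand), the D2 receptor, was near the lower limit of these libraries. It was listed at 10.9, 10.9, 12.3 and 15.3 normalized counts in Anesthesia mice 1 to 4, and at 4.77, 10.2, 29.2 and 15.7 in Control mice 1 to 4. If the spacing of low values stands for 1 read, these are approximately 10 to 15 reads in the Anesthesia mice and 5 to 24 reads in the Control mice. The read numbers themselves could not be restored. Only 5.04% of genes tested had a lower mean. The log2 fold change was -0.02 ± 0.46 (SE), with a 95% interval from -1.04 to 0.99 (limma, adjusted p = 0.991). Control mouse 3, the highest for Drd2, also had the highest sum of 8 thalamic markers, 4205 against 2969 to 4008 in the other mice. In that mouse Zic1 was at 1104 normalized counts against 272 to 619, and Prkcd and Tcf7l2 were also the highest. Rora, Lef1, Synpo2, Slc17a6 and Ramp3 were not the highest there. Slc17a6 was at 441 normalized counts against 372 to 791, and Ramp3 at 35.5 against 28.8 to 80.6. Control mouse 3 also had the highest choroid plexus sum, 103473, and Control mouse 1, the lowest for Drd2, had the lowest, 4309. With the choroid plexus covariate the log2 fold change of Drd2 was 0.34. The highest oligodendrocyte marker sums were those of Anesthesia mouse 4, Control mouse 3 and Control mouse 4, at 161834, 152961 and 138547. These were also the mice with the highest Drd2 values. The part of each of these tissues in the Drd2 values was not tested. Without Control mouse 3 the log2 fold change was 0.37, and without Control mouse 1, the lowest, it was -0.43.

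The balance of the D1 and D2 receptors within a mouse was compared as a ratio. The log2 ratio of Drd1 to Drd2 was 3.49, 2.56, 3.86 and 3.32 in Anesthesia mice 1 to 4, and 4.86, 4.00, 1.56 and 2.53 in Control mice 1 to 4. The means were 3.31 ± 0.55 (SD, n = 4) and 3.24 ± 1.48 (SD, n = 4), and the difference of 0.07 was smaller than the SD of either group (exact permutation test, two-sided, p = 0.943, adjusted over 2 ratios 0.943).

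Cnr1 (ENSMUSG00000044288, chr4:33924593-33948831, plus strand) differed from the other 8 genes in both its level and its precision. It was listed at 5797, 5242, 5053 and 5745 normalized counts in Anesthesia mice 1 to 4, and at 6051, 5987, 5303 and 6000 in Control mice 1 to 4, above the mean of 97.8% of genes tested. Anesthesia mice 2 and 3 lay below every Control mouse, and no Anesthesia mouse lay above the Control range. The means were 5459 ± 369 (SD, n = 4) and 5835 ± 356 (SD, n = 4), with coefficients of variation of 6.76% and 6.10%. The log2 fold change was -0.10 ± 0.07 (SE), with an adjusted limma p of 0.709. Its 95% interval, from -0.24 to 0.05, was the narrowest of the 9. Cck, the neuropeptide of the interneurons that carry most CB1, was listed at 2817 ± 205 (SD, n = 4) in Anesthesia and 3114 ± 325 (SD, n = 4) in Control, with a log2 fold change of -0.14 ± 0.08 (SE) and an adjusted limma p of 0.671. Of the 10 interneuron markers, 4 had a log2 fold change above 0 (Vip, Npy, Reln and Lamp5) and 6, with Cck, below. Bulk values do not show which cells the Cck RNA came from.

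**Figure D2:**
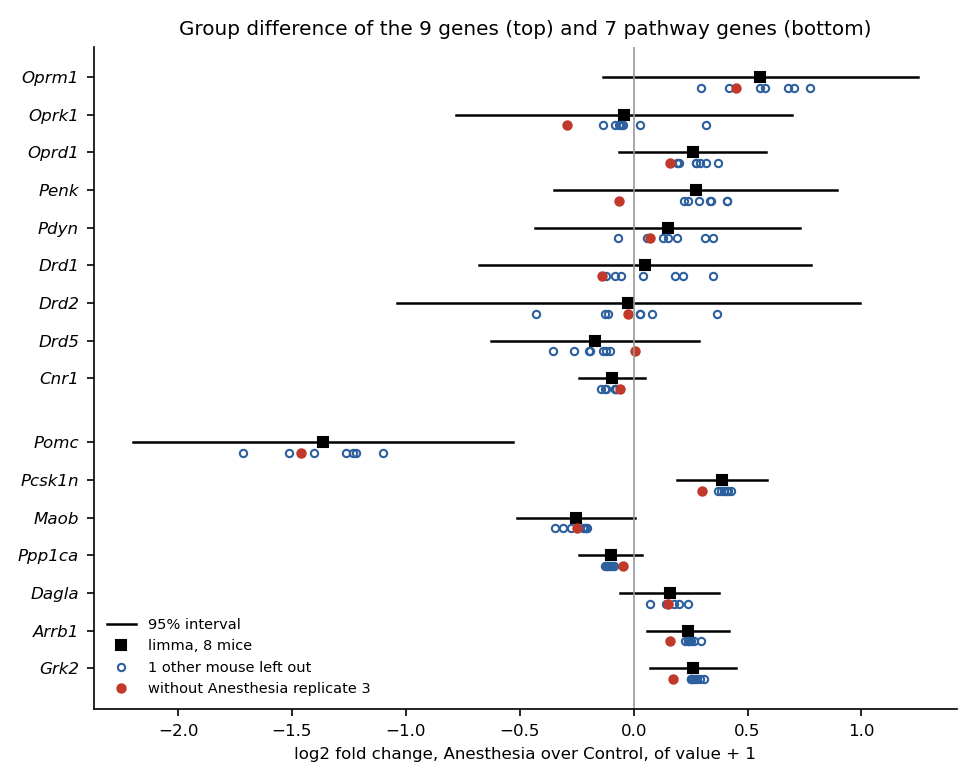
Group differences as log2 fold changes of Anesthesia over Control from limma for the 9 genes (top) and for the 7 pathway genes named by rule (bottom). Black squares and lines show the fit to all 8 mice with its 95% interval, open circles the fits without 1 mouse, and red circles the fit without Anesthesia mouse 3. The intervals of all 9 genes cross 0, from the narrowest, Cnr1 (-0.24 to 0.05), to the widest, Drd2 (-1.04 to 0.99).

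To compare levels between genes, the normalized counts were divided by the length of each gene's merged exons. On this scale per kb, Cnr1 was the highest at 876 ± 60.7 (SD, n = 8), followed by Penk at 107 ± 48.0, Drd5 at 68.0 ± 15.4 and Oprd1 at 62.9 ± 11.8 (SD, n = 8 each). Drd1 at 37.4 ± 12.8 and Pdyn at 31.3 ± 8.48 came next, and Oprm1 at 6.78 ± 3.11, Drd2 at 5.36 ± 2.80 and Oprk1 at 5.13 ± 1.66 were the lowest (SD, n = 8 each). Ranges over the 8 mice were separate between Cnr1 and Penk and between Pdyn and Oprm1, and overlapped between all other neighbors in this order. The place of the long receptor genes depends on the length used. Divided by the longest annotated transcript (2420 bases for Oprm1 in place of 8037, and 4675 for Oprk1 in place of 9151), Oprm1 was at 22.5 and overlapped Pdyn, and Oprk1 was at 10.04, above Drd2 at 5.36. The deposited table does not say which transcripts the reads came from.

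**Figure D3:**
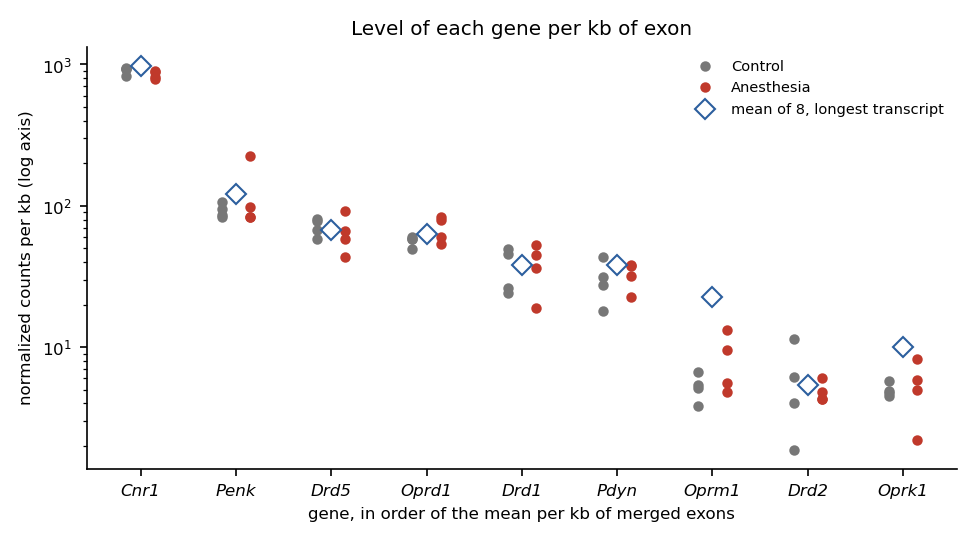
Level of each of the 9 genes as normalized counts per kb of merged exons on a log axis, with 1 point per mouse (grey, Control; red, Anesthesia). Open diamonds give the mean of the 8 mice divided instead by the longest transcript. Cnr1 stands alone with a mean of 876 per kb, the means from Penk down to Pdyn lie between 31.3 and 107, and Oprm1 moves from 6.78 to 22.5 per kb with the choice of length.

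The other genes of each pathway were taken from lists written with the test. Of the 6 other opioid ligands and receptors, 2 had a log2 fold change above 0 and 4 below, with a median of -0.09. Of these, 1 had an unadjusted limma p under 0.05 and was lower, against 3.27% of all genes tested. That gene was Pomc, the precursor of beta-endorphin and the third gene with a counted copy of the opioid core. It was listed at 19.5, 33.8, 30.0 and 17.8 normalized counts in Anesthesia mice 1 to 4, and at 59.3, 30.4, 84.6 and 111.7 in Control mice 1 to 4. Control mice 1, 3 and 4 lay above every Anesthesia mouse, and Control mouse 2 lay within the Anesthesia range. The log2 fold change of Pomc was -1.36 ± 0.38 (SE; limma, unadjusted p = 0.00436, adjusted p = 0.568), and it stayed between -1.72 and -1.10 when each mouse was left out. Among the rest of that list, Oprl1, the nociceptin receptor, was listed at 840 ± 120 (SD, n = 4) in Anesthesia and 961 ± 51.3 (SD, n = 4) in Control (limma, adjusted p = 0.639), and Pnoc, the nociceptin precursor, at 55.1 ± 10.4 and 63.8 ± 27.6 (SD, n = 4 each; limma, adjusted p = 0.898).

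Of 9 genes for the processing of neuropeptide precursors, 6 had a fold change above 0 and 3 below, with a median log2 fold change of 0.03. Of these, 1 had an unadjusted limma p under 0.05 and was higher, against 4.75% of all genes tested. This was Pcsk1n, which encodes proSAAS, an inhibitor of the convertase PC1/3. It was listed at 831, 809, 1057 and 841 normalized counts in Anesthesia mice 1 to 4, and at 668, 686, 650 and 683 in Control mice 1 to 4, so that the groups did not overlap. Its log2 fold change was 0.39 ± 0.09 (SE; limma, unadjusted p = 0.00126, adjusted p = 0.565), and 0.30 without Anesthesia mouse 3. The groups also did not overlap for Cpe, the carboxypeptidase that trims the cut peptides, with the Anesthesia mice below the Control mice, at 35113 ± 1141 (SD, n = 4) against 36887 ± 593 (SD, n = 4), with an adjusted limma p of 0.699. Of all genes tested, 2.81% had groups without overlap in the higher and 2.23% in the lower direction. The convertases themselves, Pcsk1 and Pcsk2, had adjusted limma p-values of 0.959 and 0.723.

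Of 10 listed genes for other dopamine receptors and for the synthesis, transport and breakdown of dopamine, 7 were in the table and 6 were tested. Drd3, Drd4 and Slc6a2 were not listed, and Slc6a3, the dopamine transporter, was under the mean of 10, at 0.907 to 11.3 normalized counts in Anesthesia mice and 5.15 to 18.1 in Control mice. All 6 tested genes had a log2 fold change below 0, with a median of -0.19, while 49.2% of all genes tested were above 0. Of the 6, 0 had an unadjusted limma p under 0.05, a threshold that 8.02% of all genes tested passed. The smallest p was that of Maob, a monoamine oxidase, at 246 ± 34.0 (SD, n = 4) in Anesthesia and 292 ± 27.9 (SD, n = 4) in Control, with a log2 fold change of -0.25 ± 0.12 (SE; limma, adjusted p = 0.627), and -0.13 with the choroid plexus covariate. Th, the rate-limiting enzyme of dopamine synthesis, which is made by midbrain neurons, lay at 10.8 to 13.8 normalized counts in Anesthesia mice and 6.42 to 24.2 in Control mice. Of 8 genes for dopamine signal transduction, 3 were above 0 and 5 below, and 0 had an unadjusted limma p under 0.05. The smallest p was that of Ppp1ca, a catalytic subunit of protein phosphatase 1, at 2696 ± 197 (SD, n = 4) against 2886 ± 81.7 (SD, n = 4; limma, adjusted p = 0.691). The log2 fold change of Ppp1ca was -0.10 over all mice, -0.048 without Anesthesia mouse 3 and -0.041 with the neocortical covariate.

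Of 10 genes for the synthesis and breakdown of endocannabinoids and for other cannabinoid receptors, 9 were tested, since Cnr2, the CB2 receptor, was under the mean of 10, at 1.92 to 8.29 normalized counts. Of the 9, 4 were above 0 and 5 below, with a median log2 fold change of -0.04, and 0 had an unadjusted limma p under 0.05. The smallest p was that of Dagla, which makes the endocannabinoid 2-arachidonoylglycerol, at 1191 ± 172 (SD, n = 4) in Anesthesia and 1059 ± 58.5 (SD, n = 4) in Control, with a log2 fold change of 0.16 ± 0.10 (SE; limma, adjusted p = 0.685). For Dagla it was 0.072 without Anesthesia mouse 2 and 0.059 with the choroid plexus covariate. Mgll, which breaks it down, and Faah, which breaks down anandamide, had adjusted limma p-values of 0.786 and 0.768.

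The last list held 18 genes that opioid, D2-class and cannabinoid receptors share, for Gi/o proteins, receptor desensitization and GIRK potassium channels. Of these, 12 were above 0 and 6 below, with a median log2 fold change of 0.05, and 2 had an unadjusted limma p under 0.05, both higher, against 4.75% of all genes tested. Arrb1, which encodes beta-arrestin 1, was listed at 4255, 3993, 5336 and 4534 normalized counts in Anesthesia mice 1 to 4, and at 3818, 3825, 3918 and 3697 in Control mice 1 to 4. Its log2 fold change was 0.24 ± 0.08 (SE; limma, unadjusted p = 0.0141, adjusted p = 0.620). Grk2, the kinase that phosphorylates active receptors so that arrestins bind, was listed at 1677, 1821, 2216 and 1731 normalized counts in Anesthesia mice 1 to 4, and at 1511, 1607, 1519 and 1540 in Control mice 1 to 4. Its log2 fold change was 0.26 ± 0.08 (SE; limma, unadjusted p = 0.0111, adjusted p = 0.620). In both genes the lowest Anesthesia mouse lay above the highest Control mouse, as in 2.81% of all genes tested. Anesthesia mouse 3 was the highest in both. Without that mouse the log2 fold changes were 0.16 for Arrb1 and 0.17 for Grk2, and with the neocortical covariate they were 0.15 and 0.19. The GIRK subunits Kcnj3, Kcnj6 and Kcnj9 had adjusted limma p-values of 0.989, 0.884 and 0.706.

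The libraries that stood apart ran through several of the 9 genes at once. Anesthesia mouse 3 was the highest of the 8 mice for Oprk1, Oprd1, Penk and Drd1 and the lowest for Drd5 and Cnr1, and Anesthesia mouse 2 was the lowest for Oprk1 and Drd1 and the highest for Drd5. In Anesthesia mouse 3 Lamp5, of the neocortical and the interneuron list, was at 828 normalized counts against 199 to 290 in the other mice. Fezf2, Rprm and Scnn1a of the neocortical list were not the highest in that mouse, while the other markers of that list were. Fezf2 was at 214 normalized counts there against 180 to 335 in the other mice. All 8 neocortical markers had a log2 fold change above 0, with a median of 0.38, and 0 of the 8 had an unadjusted limma p under 0.05. All 13 choroid plexus markers had a log2 fold change below 0, with a median of -1.88 and 0 at an unadjusted limma p under 0.05, and Kcne2 was listed at 0 in Control mouse 1. Sums of 9 listed striatal spiny neuron markers lay at 3013 to 3451 in Anesthesia and 2836 to 3139 in Control mice, where Six3 and Isl1 were not listed and Adora2a lay at 14.2 to 33.4 normalized counts. Sums of 5 listed midbrain dopamine neuron markers lay at 754 to 1097 in Anesthesia and 798 to 1271 in Control mice, where Pitx3 and En1 were not listed. In the other marker lists, 5 genes had an unadjusted limma p under 0.05, a threshold that 8.02% of all genes tested passed. Their adjusted limma p-values were 0.620 to 0.622. The striatal list (9 tested) held Pde10a (log2 fold change 0.19, groups without overlap) and Rarb (-0.51). The thalamic list (8 tested) held Tcf7l2 (-0.57), the interneuron list (10 tested) Gad1 (-0.14) and the astrocyte list (6 tested) Slc1a2 (0.17). The dentate granule neuron, CA1, CA3, oligodendrocyte, microglia and midbrain lists, with 10, 6, 5, 6, 6 and 4 genes tested, held 0. Groups also did not overlap for P2ry12 of the microglia list, higher in Anesthesia, and for Gja1 and Slc1a3 of the astrocyte list, lower. Of all genes tested, 5.04% had groups without overlap. Fold changes were above 0 for 6 of 9 striatal, 3 of 10 dentate granule neuron, 3 of 6 CA1, 0 of 5 CA3, 4 of 10 interneuron, 0 of 6 oligodendrocyte, 5 of 6 microglia, 2 of 6 astrocyte and 4 of 8 thalamic markers, beside 49.2% of all genes tested. The part of these tissues in the values of the 9 genes was not tested. The covariate fits given above do not separate it from other differences between the mice.

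**Figure D4:**
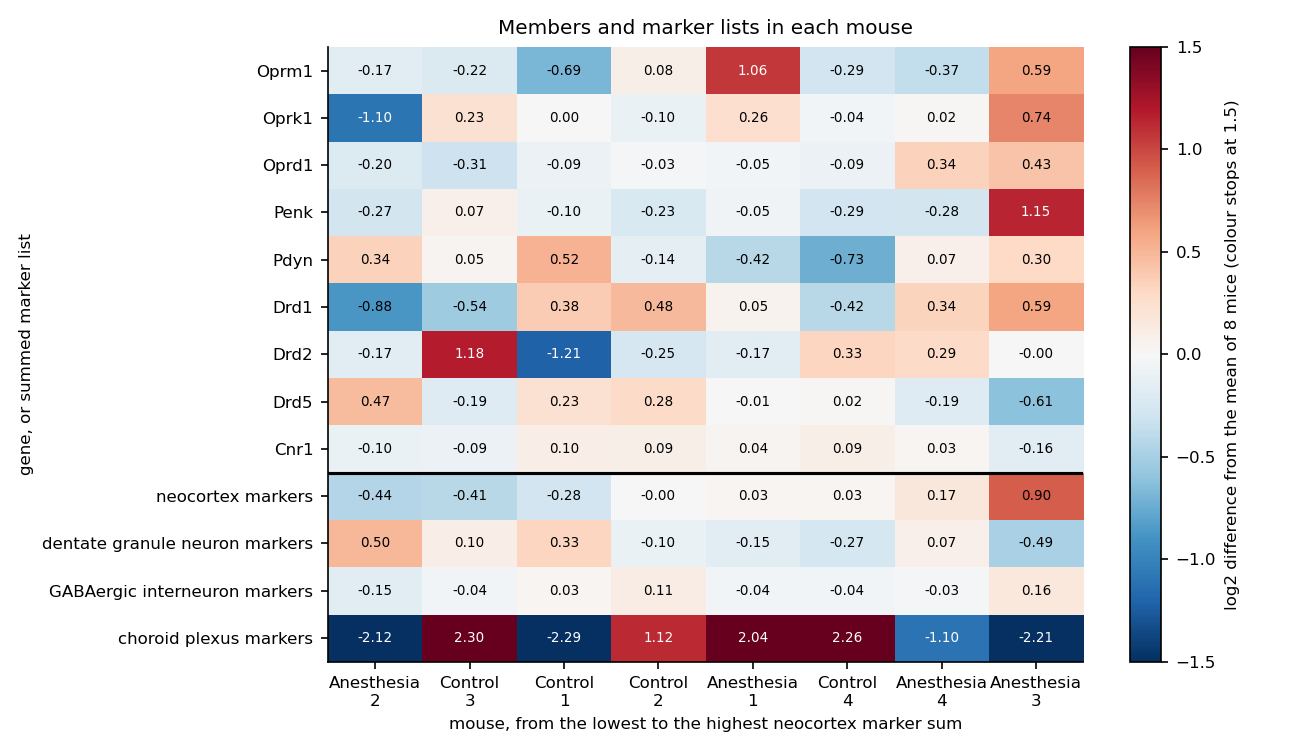
Log2 difference of each mouse from the mean of the 8 mice for the 9 genes (rows above the line) and for 4 summed marker lists (rows below it), with mice ordered from the lowest to the highest neocortical marker sum. Red marks values above and blue values below the mean, and the color stops at 1.5. The outermost columns, Anesthesia mouse 2 and Anesthesia mouse 3, have opposite signs for Oprm1, Oprk1, Oprd1, Penk, Drd1 and Drd5, and the choroid plexus row follows another order.

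Finally, the genes most like each of the 9 in their pattern over the 8 libraries were listed as a description, among the 12249 genes whose mean reached 100 normalized counts. All coefficients are over the same 8 libraries, whose tissue markers differed as given above. For Penk these included Rps27 and Dusp8, with Pearson r of 0.957 and 0.952, and for Pdyn they were Gm45516, Ppp1r10 and Pde1b (0.956 to 0.987). For Oprm1 they were Gpr89, Stk11ip and Fam189b (0.915 to 0.939), for Oprd1 Ube4b, Kif1a and Cux2 (0.967 to 0.983) and for Oprk1 Tspan14, A230057D06Rik and Plppr3 (0.964 to 0.966). For Drd1 they were Hpcal1, Angpt1 and Cadm1 (0.961 to 0.978), for Drd5 Atp2c1, Dpp6 and Mturn (0.980 to 0.983) and for Drd2 Zfp521, Frmd8 and Sox2ot (0.934 to 0.952). For Cnr1 they were Coq7, Rps23 and Rpl27a (0.946 to 0.958).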

How the data were processed

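RNA-sequencing values of the hippocampus of 8 mice were used. The authors ran Salmon 1.1.0 (quasi-mapping, GRCm38, GC bias corrected), collapsed transcripts to genes by tximport and normalized the counts in DESeq2 1.30.1 (versions per the submitters' processing notes, which also list R 3.5.3). What they deposited is thus a normalized signal, not raw reads. The annotation release and any filter on low genes are not given in the sources used here. For the library kit, the labels and the study's methods differ (a stranded total RNA kit in the latter).

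Of 20802 identifiers, 20784 matched a symbol in GENCODE M21 (GRCm38) and 18 did not. The spacing of low values, taken to stand for 1 read, was 0.849 to 1.216 normalized counts. Of the low values, 42.0% to 65.3% were within 0.1 of whole multiples of it, so read numbers could not be restored and a count model was not used. Log2 ratios between library pairs had SDs of 0.230 to 0.456 over genes with a mean of at least 100, so no library appeared in duplicate. In R 4.3.3, limma 3.58.1 was fitted with a trend to log2(value + 1) of the 18865 genes whose mean was at least 10, with no covariate, and 1937 genes were left out. Benjamini-Hochberg adjustment covered all genes tested, with a threshold of 0.05. The Penk to Pdyn and Drd1 to Drd2 ratios were compared with two-sided exact permutation tests. The fit was tested on simulated data.

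The 9 genes, the pathway and marker lists and the tests were chosen with earlier results of these data known. The named genes are the 9, the genes of 6 pathway lists with an unadjusted p under 0.05 or, in a list with none, the smallest p, and the 3 genes most like each of the 9. Other genes named beside them, and the neocortical marker list (8 genes, among them Lamp5, Rorb, Cux2, Tbr1, Fezf2, Rprm and Scnn1a, of which Lamp5 also stands in the interneuron list and 1 other in the CA1 list), were chosen after their values were seen. Some genes that meet these rules are not reported here.

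Other scalings, filters, pseudocounts, limma voom, a replicate block, a choroid plexus covariate and each mouse left out in turn were tried, with a neocortical covariate and ratios without a pseudocount added after the data were seen.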

Additional observations from a re-analysis of the deposited data

Results flagged for a closer look

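A sample was set apart where its gap to the nearest of the other 3 mice of its group, divided by the range of the group, was above Dixon's 95% critical value for 4 samples. Of 36 groups examined (the 9 genes, the 7 pathway genes named by rule and the 2 ratios, in each treatment group), 4 held such a sample, where chance gives about 1.8. Penk in Anesthesia mouse 3 was at 366.4 normalized counts against 136.1 to 159.4 in the other Anesthesia mice, with a gap of 0.899 of the range. Cnr1 in Control mouse 3 was at 5303 normalized counts, while the others of its group lay at 5987 to 6051, with a gap of 0.914. Pcsk1n in Anesthesia mouse 3 was at 1057 normalized counts against 809 to 841, with a gap of 0.871. Dagla in Control mouse 1 was at 1146 normalized counts against 1017 to 1038, with a gap of 0.834.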

How the results depend on the processing

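None of the 9 genes passed an adjusted p of 0.05 under any of the alternatives run, all of which were limma fits. Over all genes tested the count was 0 in limma (1513 at an unadjusted p under 0.05), and 0 to 2 when each mouse was left out. The count of 2, mt-Nd4l and Gm10222 (named after their values were seen), came without Control mouse 1. Members at an unadjusted p under 0.05 numbered 0, or 1 with the choroid plexus covariate (Oprm1), without Anesthesia mouse 2 (Oprd1) and without Anesthesia mouse 4 (Oprm1), and the genes at that threshold numbered 889 with the choroid plexus covariate and 1061 to 2024 with a mouse left out.

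The log2 fold changes of Oprm1, Oprd1, Cnr1 and the 7 named pathway genes kept their direction in all 17 alternatives. Directions turned with the choroid plexus covariate for Oprk1 (0.047), Pdyn (-0.16), Drd1 (-0.085) and Drd2 (0.34), and with the neocortical covariate for Penk (-0.011), Drd1 (-0.27) and Drd5 (0.038). The cause was not tested. With each mouse left out in turn, ranges were -0.29 to 0.32 for Oprk1, -0.065 to 0.41 for Penk, -0.070 to 0.35 for Pdyn, -0.14 to 0.35 for Drd1, -0.43 to 0.37 for Drd2, -0.35 to 0.0074 for Drd5, 0.30 to 0.77 for Oprm1, 0.16 to 0.37 for Oprd1 and -0.14 to -0.06 for Cnr1. The difference in the log2 ratio ranged from -0.14 to 0.35 for Penk to Pdyn and from -0.49 to 0.61 for Drd1 to Drd2. Without the pseudocount, the differences were 0.12 and 0.051. The filter of at least 10 in every library removed Drd2, so it gives no value there.

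Mice with the same replicate number correlated in their deviations from the group means at -0.348, -0.248, -0.330 and 0.195. Mice of unlike number were not compared in this way, so these values do not settle whether the numbers pair the mice. With the number as a replicate block, 0 genes passed an adjusted p of 0.05 and 1084 an unadjusted p of 0.05, and the difference in log2 ratio stayed at 0.12 for Penk to Pdyn and 0.07 for Drd1 to Drd2. With 4 mice per group and values as low as 4.77 normalized counts for Drd2, both the number of mice and depth limit the precision.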
